A study of Drosophila melanogaster with 2 samples.

Results

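The genes described are the 10 core Hedgehog signalling genes hh, disp, ptc, smo, ihog, boi, cos, fu, Su(fu) and ci, chosen by name. All 10 matched the annotation by symbol, among 13945 protein-coding genes of chromosomes X, 2, 3 and 4, whose 6 arms were searched. The data are chromatin immunoprecipitation sequencing (ChIP-seq) peaks from whole Drosophila melanogaster embryos collected over 0 to 24 h. The embryos came from the strain inv-GFP, in which an insertion targeting inv gives a fusion of Invected and enhanced green fluorescent protein, called Inv-eGFP. The labels give inv as the antibody target in one field and an antibody to GFP in another. There was 1 group with 2 biological replicates. No untagged strain and no control library were analysed here, so no value below is set against a control embryo. The sources used here give neither the promoter nor the copy number of the fusion gene. Whole embryos of all ages in the collection were pooled, so cells that express Inv cannot be told apart from cells that do not.

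Hedgehog is a secreted, lipid-modified ligand. Without it, the receptor Patched keeps the membrane protein Smoothened inactive. The cytoplasmic proteins Costal 2 and Suppressor of fused then hold the zinc finger factor Cubitus interruptus (Ci) in check. When Hedgehog binds Patched together with its co-receptors Ihog and Boi, Smoothened becomes active and Ci turns on target genes, ptc among them. In the segments of the fly embryo and in the wing disc, Engrailed, the paralog of Invected, is known to keep hh on in posterior cells and ci and ptc off there. Both proteins carry a homeodomain that binds DNA words with the core TAAT.

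A peak is a stretch of the genome where immunoprecipitated fragments pile up, and its summit is the base with the highest pile. The signal of a peak is the authors' own peak height, and since its scale is unstated it serves only to order peaks within a list, with rank 1 the highest. The score rescales the irreproducible discovery rate to whole numbers up to 1000, and every thresholded list starts at a score of 830. The main list is the larger pooled thresholded list, with 3406 peaks, of which 3393 lay on the arms. The read depth of the 2 libraries is unknown. A gene holds a summit here if the summit falls inside it or at most 2 kb beyond either end. The start of a transcript is its transcription start site (TSS).

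Of the 10 genes, 7 held a main-list summit: hh, ptc, smo, ihog, boi, cos and ci. Across all protein-coding genes 37.7% did. These 7 genes held 12 summits, and fu, Su(fu) and disp held none. Within 1 kb of a TSS of their own, 4 of the 10 genes (ptc, smo, ihog and boi) had a summit, against 27.2% of all genes. The same 4 were the gene of the nearest TSS for at least 1 summit, against 20.8% of all genes. Inside the gene itself, only ptc and boi had a main-list summit, against 9.54% of all genes. The 10 genes had a median length of 5.78 kb and all protein-coding genes one of 2.17 kb, and the part that length plays in these counts was not tested. No test was made of these differences, because the study has 1 group and genes are not replicates.

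By the nearest TSS, promoters of neighbours held 6 of the 12 summits and those of the genes themselves held 5. The summit of ci lay away from any. Some of these promoters are shared, and 6 summits lay within 1 kb of an own TSS. The stronger smo summit lay 281 bp from the TSS of smo, and the boi summit counted for boi lay 39 bp from a TSS of z. A TSS lay within 1 kb of 11 of the 12 summits, and of 85.8% of all main-list summits on the arms. The nearest TSS belonged to the Hedgehog gene itself at 5 summits and to another gene at 7. Of the 7 genes with a summit, only ptc had its own TSS nearest to its strongest summit (14.3%). Among all 5261 genes with a summit in the main list, 2300 did (43.7%). A summit within 2 kb of several genes counts for each of them in both shares. The strongest signals at the 7 genes had a median of 181, against 205 over all genes with a summit.

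**Figure D1:**
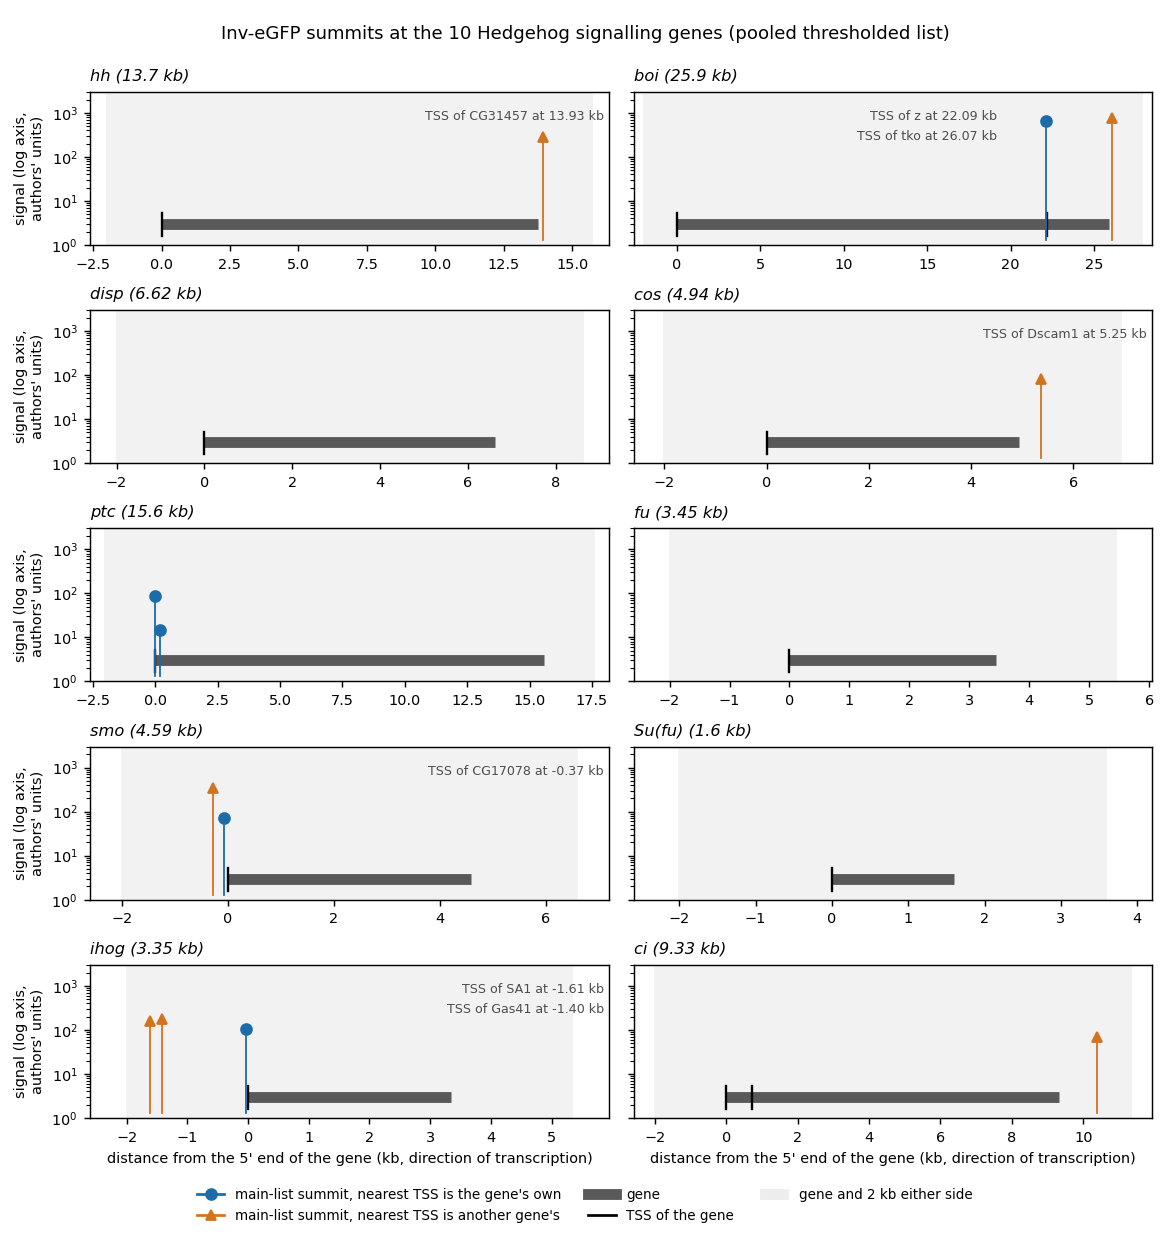
Main-list summits at the 10 Hedgehog signalling genes, with the distance from the 5' end of the gene in kb along the horizontal axis and the authors' signal on a log axis. Circles mark summits nearest to the gene's own TSS and triangles those nearest to another gene's TSS. The 5 circles lie at ptc, smo, ihog and boi, and the panels of disp, fu and Su(fu) hold no summit.

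The ligand gene hh (FBgn0004644, chr3R:23128169-23141906, minus strand, dm6) held 1 summit. Its peak at chr3R:23127915-23128096 had a signal of 279 in the main list, higher than 76.1% of the peaks there, and ranked 815. In the ranked lists of the replicates, the overlapping entries had signals of 206 in replicate 1 and 69.4 in replicate 2. Both had a score of 1000, the highest possible, so each replicate alone placed a listed peak here, with summits 1 bp and 3 bp from the pooled one. The position was not that of the hh promoter. The summit lay 177 bp past the 3' end of hh, 13914 bp from the TSS of hh and 11 bp upstream of the TSS of CG31457, a gene on the same strand. The 187 bases between the 2 genes are shown first because the summit lies in them, and the 30 bases at the summit next. Both give the plus strand of the Release 6 genome, which has dm6 coordinates. Capitals mark TATCGA or its reverse complement, part of the DNA replication-related element of many housekeeping promoters.
CG31457 to hh, chr3R:23127982-23128168: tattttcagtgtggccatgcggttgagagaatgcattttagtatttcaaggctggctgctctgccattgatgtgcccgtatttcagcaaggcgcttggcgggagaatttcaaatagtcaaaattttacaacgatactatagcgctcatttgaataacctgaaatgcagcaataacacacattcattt
hh summit, chr3R:23127966-23127995: gccgatttgtTATCGATAttttcagtgtgg

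No thresholded peak lay within hh. Its body held 19 entries of the pooled ranked list from which the main list was taken, and the highest signal among them was 52.1, at chr3R:23136912-23137335 in an intron, with a score of 533. The strongest entry within hh lay elsewhere in each replicate. In replicate 1 it was at chr3R:23139683-23140078 (signal 30.2, score 314) and in replicate 2 at chr3R:23140196-23140571 (signal 32, score 356). These 3 intervals did not overlap one another.

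The gene disp (FBgn0029088, chr3R:5849697-5856311, minus strand) encodes the membrane protein that releases Hedgehog from the cells that make it. It held no main-list summit, and the nearest one lay 3761 bp upstream of its TSS, with a signal of 62.1 and CG2017 as the gene of the nearest TSS. The highest score within its 2 kb limits was 259 in the pooled ranked list, 135 in replicate 1 and 49 in replicate 2, all far below 830. The replicate 1 entry lay between the TSS of disp and that of ECSIT, which are 274 bp apart on opposite strands, while the replicate 2 entry lay in the coding sequence of disp.

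The receptor gene ptc (FBgn0003892, chr2R:8649649-8665223, plus strand) is itself a known target of Ci. It was the 1 Hedgehog gene whose strongest summit lay at its own TSS, and no other protein-coding gene came within 2 kb of either of its summits. Its peak at chr2R:8649430-8649853 had a summit 7 bp upstream of the TSS and a signal of 88.3, rank 2377. A second peak overlapped it at chr2R:8649639-8650062, with a summit 202 bp downstream of the TSS in the 5' UTR and a signal of 14.9, rank 3303. Neither peak overlapped a listed peak of a replicate, nor did the conservative list hold them. The ranked lists show by how much. At the stronger peak, replicate 1 had an entry with a signal of 55.5 and a score of 700, and replicate 2 one with a signal of 19.5 and a score of 133. Both pooled peaks had a score of 1000 in the ranked list of the main list, while the same 2 intervals had scores of 171 and 38 in the other pooled ranked list, from which the conservative list was taken. The ptc promoter thus passed in 1 of the 4 thresholded lists. Further into the gene, the highest entry of the pooled ranked list was at chr2R:8651513-8651936 in an intron, with a signal of 51.5 and a score of 42. The same interval had a score of 516 in the other pooled ranked list, above the 171 of the promoter there. The strongest entry of replicate 2 within ptc (chr2R:8651408-8651783, signal 28.3, score 29) overlapped it.

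The gene smo (FBgn0003444, chr2L:277582-282167, plus strand) encodes Smoothened, the membrane protein that passes the signal on. It shares a promoter region with CG17078. Their TSS lie 370 bp apart on opposite strands, and 3 of the 4 transcripts of CG17078 start there. The stronger peak, chr2L:277183-277356, had a signal of 341 and ranked 645, above 81.1% of the main list. Its summit lay 89 bp upstream of CG17078 and 281 bp upstream of smo. The overlapping ranked entries had signals of 252 in replicate 1 and 90.2 in replicate 2, each with a score of 1000. The weaker peak, chr2L:277290-277713, had a summit 80 bp upstream of smo and a signal of 71.8, rank 2867. Its score was 853 in the main list, close to the limit of 830, and the same interval had a score of 57 in the pooled ranked list of the conservative list. Each replicate nevertheless had an entry of its own within 8 bp of that summit, with signals of 59.0 in replicate 1 and 16.4 in replicate 2. Both had a score of 1000, but they ranked 2380 and 34715 by signal in the ranked lists. The replicate 2 entry ranked 2019 among the 2156 listed peaks of that replicate. The site nearest smo was therefore listed in each replicate but not in the conservative list.

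At the stronger smo summit, the 30 bases with the closest TATCGA match are shown, on the plus strand with the match in capitals. They lie in the annotated leader of 1 of the 4 transcripts of CG17078, and the capitals form a palindrome that counts as 2 matches, as at hh.
smo summit, chr2L:277264-277293: atcgcggtgtTATCGATActccgcacccag

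The co-receptor gene ihog (FBgn0031872, chr2L:6945464-6948808, minus strand) held 3 summits. The strongest peak, chr2L:6950014-6950437, had a signal of 181 and rank 1308 and lay 19 bp upstream of the TSS of Gas41, a YEATS domain protein of chromatin complexes. The next, chr2L:6950217-6950640, had a signal of 158 and rank 1480 and lay 8 bp downstream of the TSS of SA1, a cohesin subunit gene. Gas41 and SA1 start 214 bp apart on opposite strands, while the TSS of ihog is 1418 bp from the first summit and 1621 bp from the second. The peak at the TSS of ihog, chr2L:6948637-6949060, had a summit 41 bp upstream and a signal of 104, rank 2066.

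At ihog the replicates differed. The replicate 1 entries had signals of 117 between Gas41 and SA1 and 78.8 at the ihog TSS, both with a score of 1000. The replicate 2 entries had signals of 61.1 at the Gas41 side (score 784), 41.4 at the SA1 side (score 140) and 30 at the ihog TSS (score 174). All 3 peaks were thus listed in the conservative list and overlapped a listed peak of replicate 1, but none of replicate 2.

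The bases between Gas41 and SA1 are shown for their copies of TAATTA, a core word of Engrailed-class homeodomains, with the 200 bases upstream of ihog, on the plus strand with TAATTA in capitals, which is the same word on both strands.
Gas41 to SA1, chr2L:6950208-6950420: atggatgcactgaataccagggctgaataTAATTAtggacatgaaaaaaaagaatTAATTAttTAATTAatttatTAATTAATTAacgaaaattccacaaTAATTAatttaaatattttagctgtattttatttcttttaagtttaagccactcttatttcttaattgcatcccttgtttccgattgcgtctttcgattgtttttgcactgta
ihog upstream, chr2L:6948809-6949008: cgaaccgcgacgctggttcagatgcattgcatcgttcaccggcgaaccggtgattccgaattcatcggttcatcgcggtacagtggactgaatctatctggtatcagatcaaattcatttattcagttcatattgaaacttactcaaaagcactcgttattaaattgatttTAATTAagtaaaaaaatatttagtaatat
The first stretch holds 6 matches, 2 of them overlapping, and 74.6% of its bases are A or T. The second holds 1 match, 133 bp from the summit, and is 63.0% A or T. All 6 matches of the first lay within 150 bp of the summit at Gas41, and no other of the 3393 main-list summits on the arms had as many. That is 0.0295% of these summits, beside 0.0147% of windows centred 500 bp away. Within 150 bp of the same summit TATCGA had 2 matches, the nearest 23 bp from it and outside the stretch shown. This region was singled out after its values were seen.

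The other co-receptor gene, boi (FBgn0040388, chrX:2444167-2470043, minus strand), held the 2 strongest of the 12 summits. The peak chrX:2443861-2444153 had a signal of 745 and ranked 141, above 95.9% of the main list. It lay 166 bp past the 3' end of boi and 25 bp upstream of the TSS of tko, which encodes a mitochondrial ribosomal protein. The peak chrX:2447752-2448081 had a signal of 639 and ranked 199. Its summit lay 25 bp upstream of a TSS of boi and 39 bp upstream of a TSS of z (zeste, a DNA-binding protein), on the opposite strand. That TSS of boi serves 1 of its 5 annotated transcripts. The other TSS, which serves 4, lay 22126 bp from the summit, and no main-list summit was closer to it. The replicates placed both peaks high. At tko the signals were 585 in replicate 1 and 168 in replicate 2, and at z they were 468 and 162, with scores of 1000 throughout.

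The tko to boi interval and the 30 bases with the TATCGA match closest to the second summit are shown on the plus strand, with TATCGA or its reverse complement in capitals.
tko to boi, chrX:2443977-2444166: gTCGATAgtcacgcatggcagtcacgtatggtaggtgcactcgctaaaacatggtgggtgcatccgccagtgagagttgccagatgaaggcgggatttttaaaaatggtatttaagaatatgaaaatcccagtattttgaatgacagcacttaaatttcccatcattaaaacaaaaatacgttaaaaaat
boi intronic summit, chrX:2447906-2447935: gagtacacatgaTATCGAttggTATCGAca
Within 150 bp of the second summit TATCGA had 5 matches, and 1.97% of all main-list summits had 5 or more.

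Of the 3 cytoplasmic regulators, only cos (FBgn0000352, chr2R:7382176-7387115, minus strand), which encodes the kinesin-like scaffold Costal 2, held a summit. Its peak chr2R:7381531-7381954 had a signal of 81.2 and ranked 2584. The summit lay 433 bp past the 3' end of cos, 5372 bp from its TSS and 126 bp downstream of a TSS of Dscam1, an immunoglobulin-family receptor gene of neurons. The entries of the replicates had signals of 44.0 in replicate 1 and 43.8 in replicate 2, and ranked 3454 and 2335 in their own ranked lists. Their scores of 731 and 875 fell on either side of 830, and only replicate 2 listed the peak. Near the TSS of cos itself, replicate 2 had an entry at chr2R:7386542-7386917 with a signal of 38.7 and a score of 717, in coding sequence 385 bp from the TSS. The pooled ranked list gave an interval with the same summit a score of 152.

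The kinase gene fu (FBgn0001079, chrX:18657755-18661204, plus strand) held no main-list summit. Its best entry in the pooled ranked list, chrX:18656864-18657287, had a signal of 60 and a score of 829, just outside the limit of 830. Just inside, the lowest score among the 12 listed summits was 853, at smo. Reaching 830 did not by itself secure a place, since 3533 entries of the pooled ranked list did and the main list holds 3406. The fu entry lay 679 bp upstream of the TSS of fu, in the 5' UTR of CG6659. It had a score of 669 in the other pooled ranked list. The nearest entries of the replicates had signals of 32.2 in replicate 1 and 30 in replicate 2, with scores of 241 and 221. The nearest main-list summit to the TSS of fu lay 4616 bp away, at Ing3, with a signal of 140.

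The inhibitor gene Su(fu) (FBgn0005355, chr3R:12689873-12691468, minus strand), whose product binds Ci, had the lowest best score of the 10 genes in the pooled ranked list. That score was 164, beside 49 in replicate 1 and 57 in replicate 2. In replicate 2 disp, at 49, was lower. In both pooled ranked lists and in both replicates the strongest entry within the gene had its summit at the same base of the coding sequence, 622 bp from the TSS. Its signals were 37.3 in the pooled list, 22.6 in replicate 1 and 19.5 in replicate 2. The nearest main-list summit lay 6189 bp from the TSS of Su(fu), at Past1.

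The transcription factor gene ci (FBgn0004859, chr4:47710-57041, minus strand) held the only 1 of the 12 summits with no TSS within 1 kb. Its peak chr4:46439-46862 had a signal of 69.9, rank 2920. The summit lay 1059 bp past the 3' end of ci, between genes and 2873 bp upstream of the TSS of PlexB, a semaphorin receptor gene. The entries of the replicates had summits 31 bp (replicate 1) and 0 bp (replicate 2) from the pooled one. They had signals of 38.9 and 38.8 and ranked 4276 and 2745 in their own ranked lists. Their scores of 750 and 611 kept the site out of both replicates' thresholded lists, while it had 975 in the main list and 880 in the conservative one. Both TSS of ci were far from it, at 9680 bp and 10390 bp. In the pooled ranked list entries were sparse around ci, with 3 or 0.225 per kb, against 0.381 per kb over chromosome 4 and 1.02 per kb over the 6 arms. The ranked list of replicate 1 had 8 entries there (0.6 per kb) and that of replicate 2 had 3 (0.225 per kb). The 101 bases centred on the summit are shown because this was the only site between genes away from a promoter. They are in lower case throughout, since none of the 4 words searched lay in them.
ci downstream, chr4:46601-46701: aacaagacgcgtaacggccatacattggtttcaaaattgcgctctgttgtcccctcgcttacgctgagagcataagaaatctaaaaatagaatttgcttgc

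**Figure D2:**
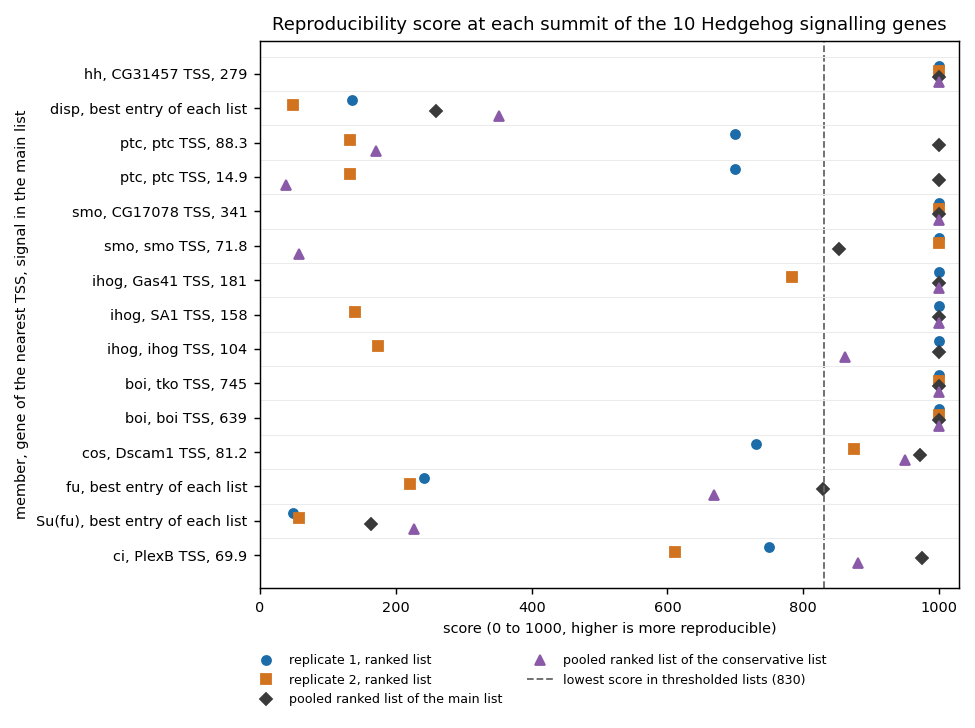
Reproducibility score (horizontal axis, up to 1000) of the entry nearest each of the 12 summits in 4 ranked lists, with the best entry of each list for disp, fu and Su(fu). All 4 lists gave 1000 at hh, the stronger smo summit and both boi summits, while the replicates fell below the dashed line at 830 for ptc and ci.

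The replicates were then compared over all sites. Of the 12 main-list peaks, 5 overlapped a listed peak of both replicates, 3 one of replicate 1 only, 1 one of replicate 2 only and 3 one of neither. Pairs of these peaks overlapped each other at smo, ptc and ihog, and merging left 9, so the tally counts some sites more than 1 time. The ihog pair overlapped the same listed peak of replicate 1. Over the whole main list 50.5% overlapped both and 15.6% neither. The 5 were those at hh, both of smo and both of boi, and the 3 without a listed replicate peak were both of ptc and the one of ci. Of the 5, 4 had a signal above 132, the median of the list, and the weaker smo peak was the exception, while 2 ihog peaks above that median lacked a listed peak of replicate 2. All 12 peaks overlapped an entry of each replicate's ranked list, but so did 97.0% of main-list peaks. Those lists hold 111856 and 102889 entries, and 96.5% of all genes had an entry in the pooled one, as all 10 Hedgehog genes did. By the highest signal of any entry in that pooled list, boi stood above 94.0% of all genes, smo above 85.6%, hh above 82.8% and ihog above 75.3%. Next came ptc (63.7%), cos (61.7%), ci (57.4%) and fu (51.0%), with disp (36.6%) and Su(fu) (35.6%) last.

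The count of Hedgehog genes with a summit depended on the list used. The conservative list, with 2554 peaks, gave 6 of 10 genes, against 32.1% of all genes, and lost ptc. The upper 50% of the main list by signal gave 4 of 10 (hh, smo, ihog and boi) against 25.3%. Replicate 1 alone gave the same 4 against 34.9%, and replicate 2 alone gave hh, smo, cos and boi against 27%. With limits of 5 kb instead of 2 kb, 9 of 10 genes had a summit, against 49.6% of all genes, and Su(fu) was the 1 without. With the gene of the nearest TSS, the 4 genes of the main list were 2 in the conservative list (ihog and boi, against 16.5% of all genes) and 1 in the upper 50% (boi, against 11.9%). They were 3 in replicate 1 (smo, ihog and boi, against 18.3%) and 2 in replicate 2 (smo and boi, against 13.6%). Counting the TSS of every annotated gene, not only protein-coding ones, left them at 4 against 19.6%.

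**Figure D3:**
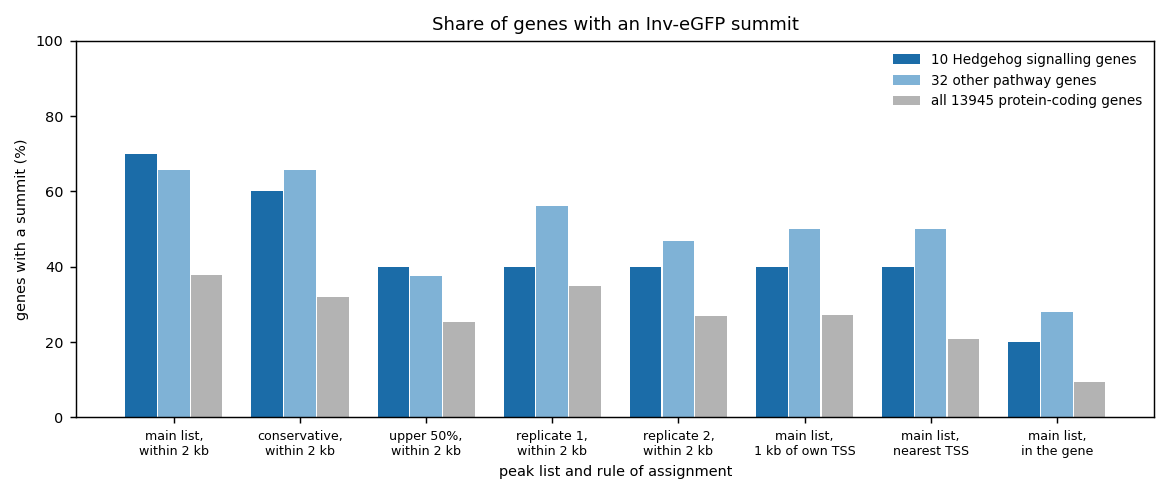
Percentage of genes with a summit (vertical axis) under 8 combinations of peak list and rule, for the 10 Hedgehog signalling genes, the 32 other pathway genes and all 13945 protein-coding genes. Among the 8 combinations drawn, the share of the 10 genes was highest with the main list and the limits of 2 kb, where 7 had a summit, and in the 2 replicates alone 4 had one.

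Sequence words were counted in windows of 301 bp centred on each summit, on both strands. TATCGA lay at 5 of the 12 summits (hh, the stronger of smo, the strongest of ihog and both of boi), against 54.8% of all main-list summits, 11.7% of windows centred 500 bp away and 24.2% of windows centred on protein-coding TSS. TAATTA lay at 3 of the 12, all of them at ihog, against 18.2%, 15.1% and 15.8%. The windows at Gas41 and SA1 overlap, so their matches are in part the same bases. GAGAGA, the word of GAGA factor, lay at 3 of the 12, the one of hh and both of ptc, against 9.90%, 10.9% and 13.7%. The windows of both ptc summits also overlap, so they are not separate sites. The window of the stronger ptc summit held 5 matches, and 5 or more lay at 0.501% of all summits and in 0.545% of the flanking windows. ACCACCC, the centre of the Ci binding site, lay at 1 of the 12, at cos, 46 bp from the summit, against 2.48%, 2.80% and 2.39%. TATCGA and TAATTA had no match at the 3 summits with no listed replicate peak. They also had none at the weaker smo summit, which both replicates listed, nor at cos, which replicate 2 listed.

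A wider list of 32 other pathway genes showed where else in the pathway summits lay. It was chosen with earlier results of these data known, so its shares are described only. Of the 32 genes, 21 held a summit in the main list, beside the 37.7% of all genes. The strongest summit was nearest the gene's own TSS at 14 of these 21 (66.7%), beside 1 of 7 core genes and 43.7% of all genes with a summit. The median of their strongest signals was 239, against 205 over all genes with a summit. The conservative list also gave 21 of the 32, beside 32.1% of all genes. They were not the same genes, with ttv and dpp in place of dally and rho.

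Among genes for processing and spread of the ligand, 5 of 7 held a summit, against 37.7% of all genes. The strongest was at shf, a secreted protein of the WIF family that aids Hedgehog spread, with a signal of 896, but it lay at the TSS of Coq7, and no main-list summit came closer than 8509 bp to the TSS of shf. The glypican gene dlp had 331 and the heparan sulfate polymerase gene botv had 125, each at its own TSS. The acyltransferase gene rasp had 300 at the TSS of Asciz, and the glypican gene dally had 118 at that of Mcm7. The polymerase genes ttv and sotv had none in the main list. The conservative list had a summit within 1 kb of a TSS of ttv and none at dally.

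Of the kinase genes, 5 of 6 held a summit, against 37.7% of all genes. The highest was CkIalpha, which phosphorylates Ci and Smoothened, with 899 at its own TSS and rank 88, found in both replicates. The others were lower, with 121 at sgg, 96.7 at Gprk2, 82.7 at dco and 74.7 at Pka-C1, and gish had none. The strongest summit of Gprk2 lay 1636 bp from its nearest TSS, that of Loxl1. The main-list summit closest to a TSS of Gprk2 was 606 bp from it. Only replicate 1 listed the strongest peaks of sgg, Gprk2 and Pka-C1. Neither listed the strongest of the 2 peaks of dco, although replicate 1 had a listed summit within 2 kb of that gene.

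Ubiquitin ligase and cofactor genes held a summit in 7 of 9 cases, against 37.7% of all genes, and all 7 had one within 1 kb of their own TSS, against 27.2% of all genes. Signals were 677 at Smurf, 633 at SkpA, 423 at Cul1, 275 at Cul3 and 239 at Roc1a, each nearest the gene's own TSS. The stronger summit of slmb had 299 and lay 122 bp from the TSS of Bdbt, its nearest. Both replicates listed each of these peaks. Cul1, SkpA, Roc1a and slmb encode parts of the ligase that processes Ci. The coactivator gene nej had 95.9, and neither replicate listed its peak. The genes rdx and Usp8 had none in the main list, while replicate 2 alone had one at rdx.

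Target genes of the pathway held a summit in 4 of 10 cases, near the background of 37.7%. Of these, en had 140 at its own TSS and caup had 109 at its own TSS. The gene kn had 611 near the TSS of BEAF-32, with no main-list summit closer than 25392 bp to that of kn, and rho had 76.6 nearest the TSS of Naa30B. No main-list summit lay at dpp, wg, sr, Ser, ara or mirr, whose nearest TSS to a summit of that list was 25487 bp away, at wg. The conservative list, however, had a summit within 1 kb of a TSS of dpp, and it had none at rho. Neither replicate listed the peak of caup, and only replicate 2 that of rho.

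**Figure D4:**
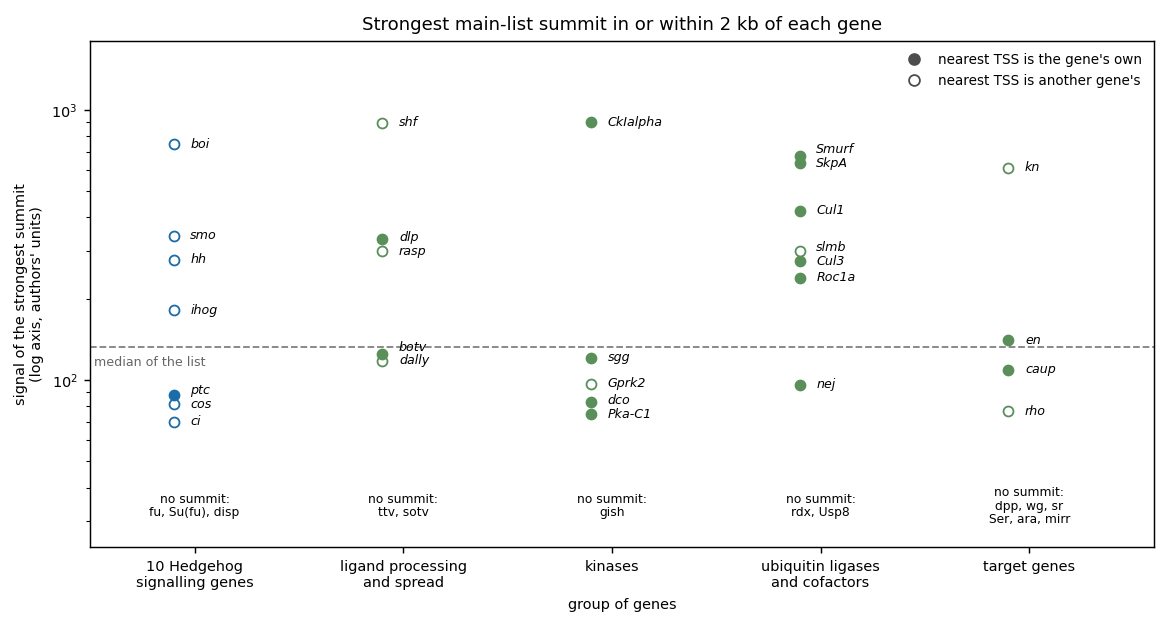
Signal of the strongest main-list summit in or within 2 kb of each gene (vertical log axis, authors' units), for the 10 Hedgehog signalling genes and 4 groups of other pathway genes. Filled circles are nearest the gene's own TSS and open circles nearest another gene's, the dashed line is the list median of 132, and genes without a summit are named below. Among the 10 core genes only ptc, at 88.3, is filled.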

How the data were processed

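Peak lists of 2 biological replicates were analysed as deposited, on dm6 per the labels. As deposited, the score column rescales the irreproducible discovery rate, and the signal column holds the authors' peak height. Per the labels, lists were made by ranking on that rate and thresholding. Which aligner and peak caller were used is not given in the sources used here. Read counts were not analysed here, so depth is unknown and no interval from counts could be given. Genes and TSS came from Ensembl release 115 and sequence from the Release 6 genome, and peaks on the 6 arms ended within the arm lengths there. Peaks on other sequences were left out. Summits were assigned to genes with Python 3.11.15, numpy 2.4.6 and pandas 2.3.3, and figures drawn with matplotlib 3.10.9. Assignment was checked on simulated data. Peaks overlapping by at least 1 bp were called shared. In ranked lists, the entry with the nearest summit was taken. Ranks are by signal within a whole list. The rule was to name all 10 genes with every summit, all 32 other pathway genes, and neighbours by their nearest TSS. The genes and lists were chosen with earlier results of these data known. With 1 group, no test was made.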

Additional observations from a re-analysis of the deposited data

How the results depend on the processing

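No paired analysis was possible because the study has 1 group. Counts beyond 1.5 times the reported one were these, and their causes were not tested. Counts without each replicate are given beside them in either case. Of those, the 8 summits, the 3 genes by the nearest TSS and the 15 and 18 other pathway genes were not beyond 1.5 times. The 7 Hedgehog genes with a summit were 4 in the upper 50% by signal, 4 within 1 kb of an own TSS, 4 by the nearest TSS and 2 within the gene, and without each replicate in turn they were 4 to 4. The 12 summits were 6 in the upper 50%, 2 within the gene, 6 within 1 kb of an own TSS and 5 by the nearest TSS, and 6 to 8 without each replicate. The 4 genes nearest to a summit by TSS were 2 in the conservative list and 1 in the upper 50%, and 2 to 3 without each replicate. Of the 32 other pathway genes, 21 were 12 in the upper 50% and 9 within the gene, and 15 to 18 without each replicate. The share of all genes with a summit fell too, from 37.7% to 25.3% in the upper 50% and 9.54% within the gene. It was 27.2% within 1 kb of an own TSS and 20.8% by the nearest TSS. Without replicate 1 it was 27%, and without replicate 2 it was 34.9%. Peaks overlapping both replicates were 12 with ranked lists, against 5. The strongest summit lay at the same site in 4 to 4 of 7 genes without each replicate. The conservative list and the 5 kb limits gave counts of Hedgehog genes within 1.5 times, as merging did for summits. Unknown depth limits any reading of peaks that 1 replicate lacks.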
